A study of Mus musculus with 12 samples.

Results

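The change over the first 4 days of reprogramming was examined in mouse embryonic fibroblasts (MEFs) from which AF10 had been deleted. AF10 is the product of the gene Mllt10. All libraries with the labels MEF_creAF10 (the starting fibroblasts) and Day4_creAF10_DMSO (day 4 in solvent) were taken, 2 of each, which is 4 of the 12 libraries of the study. All genes of the deposited tables were included and joined by transcript identifier. The fibroblasts carried 2 floxed AF10 alleles, a doxycycline-inducible cassette of the reprogramming factors (OSKM) and rtTA, the activator that doxycycline switches on. Both groups had received Cre recombinase from the adenovirus Ad5-CMV-Cre, and their genotype is labelled AF10 -/-, OSKM, rtTA. MEF_creAF10 cells were kept in MEF medium. Day4_creAF10_DMSO cells had been given 2 µg/mL doxycycline and DMSO from 2 days after the virus, in a stem cell medium that contained leukemia inhibitory factor, on DR4 feeder MEFs over gelatin. Feeder cells are themselves fibroblasts, and how much of their RNA entered the day 4 libraries was not tested. Doxycycline, medium, feeders and time since the virus all differ between the stages and cannot be told apart. The matching arm with intact alleles, MEF_fl and Day4_fl_DMSO with 2 libraries each, carried the same alleles and cassette and had received an empty adenovirus. Cre virus was given to floxed cells alone, so an effect of the virus and one of AF10 loss cannot be told apart either.

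In reprogramming, the transcription factors Oct4 (Pou5f1), Sox2, Klf4 and Myc turn fibroblasts into induced pluripotent stem cells. In its first days fibroblasts are known to lose mesenchymal gene expression, to proliferate faster and to gain epithelial junctions, while most of the pluripotency network is switched on later. AF10 binds the histone methyltransferase DOT1L and promotes methylation of H3K79, a mark of transcribed genes; loss of DOT1L activity is known to ease reprogramming.

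The library totals were 16258109 and 22800753 expected counts in MEF_creAF10 and 14645732 and 17292985 in Day4_creAF10_DMSO. Levels are given below as CPM, counts relative to a common scaled library size, for replicates 1 and 2 of MEF_creAF10 and then of Day4_creAF10_DMSO. Changes are log2 differences, day 4 minus MEF, ± SE, from edgeR's quasi-likelihood test with Benjamini-Hochberg adjustment over 13936 genes. Unless stated, the fit held no term for the replicate number. A gene is said to have risen or fallen where the adjusted p was under 0.05. Replicates 1 and 2 came from cells of different sex, since the listed Y-linked genes held 4307 and 4062 counts in the replicate 1 libraries and 8 and 34 in the replicate 2 libraries. Cells of different sex do not come from 1 embryo, but the labels do not say how many embryos each replicate holds. The p-values measure only the spread between libraries of a group, estimated over all 12 libraries of the study.

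Mllt10 itself was at 35.4 and 34.5 CPM in MEF_creAF10 and at 44.2 and 41.8 CPM on day 4, against 43.1 and 45.4 CPM in MEF_fl and 61.4 and 55.3 CPM in Day4_fl_DMSO. Each Cre library was thus below the intact library of its stage and replicate number, with most of the reads still present. The files hold a single value per gene, so reads of the deleted exons could not be counted apart. Within the deleted arm Mllt10 rose by 0.30 ± 0.08 (adjusted p = 0.0117, edgeR), and this call was lost without Day4_creAF10_DMSO replicate 1 (0.26, adjusted p = 0.0737) and without MEF_creAF10 replicate 2 (0.28, adjusted p = 0.0567), and in a fit of these 4 libraries alone (adjusted p = 0.0654). Dot1l, the methyltransferase, was at 56.6 and 49.4 and then 56.9 and 55.4 CPM, with overlapping stages and an adjusted p of 0.57. Mllt3, which encodes AF9, another DOT1L partner, was at 24.9 and 35.2 and then 112 and 94.8 CPM and rose by 1.78. Mllt6, the closest relative of Mllt10, rose by 0.54, from 55.2 and 63.3 to 88.5 and 84.6 CPM. Of the 9 genes listed for the DOT1L complex, 3 rose and 0 fell, and Mllt10, Mllt3 and Mllt6 were those 3.

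Over the 4 days 3833 of 13936 genes rose (27.5%) and 3832 fell (27.5%), 55.0% in all, so a share of calls near these values says nothing particular of a gene list. The libraries of the stages did not overlap for any called gene, and all called genes changed in the same direction in both replicates. With 2 libraries a stage the call itself favours such genes, so this is no further support. Of all 13936 genes tested, 11908 changed in the same direction in both replicates. The median change over all genes was 0.017. Among the called genes, 1414 rose and 1691 fell by over 1 log2 unit, 276 rose and 361 fell by over 3, and 108 rose and 73 fell by over 5. Scaling by library totals alone gave 4955 higher and 2987 lower, with a median of 0.166 over all genes and 62.4% rises among the calls, where the main scaling gave an even split. Because whole cultures were sequenced, fewer cells of a type and less RNA per cell cannot be told apart for any gene below.

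The markers parted the stages. Pou5f1, the pluripotency factor also carried by the cassette, was at 0.943 and 0.276 CPM in the fibroblasts and at 106 and 89.6 CPM on day 4. It rose by 7.45 ± 0.28, or 174-fold (adjusted p = 2.87e-07, edgeR quasi-likelihood test). L1td1, which binds RNA in embryonic stem cells, went from 0.135 and 0.230 to 69.8 and 59.5 CPM, a rise of 8.35 ± 0.22. Postn, the matrix protein periostin of fibroblasts, went from 4528 and 2910.0 to 101 and 67.1 CPM, 44.2-fold lower on day 4. Laptm5, a lysosomal membrane protein of blood cells, went from 1.01 and 0.461 to 36.1 and 52.3 CPM and rose by 5.98 ± 0.48. Of the 20 listed macrophage and blood genes 16 passed the filter, 7 rose and 0 fell, with a median of 1.55, against 27.5% of all genes that rose. The median was 0.713 in replicate 1 and 2.417 in replicate 2. Cd68, of macrophage lysosomes, rose by 1.46 to 4.36 and 5.59 CPM, and C1qc, a complement chain that macrophages make, rose by 4.00 to 1.19 and 2.51 CPM. Other genes that define blood cells stood on day 4 with Ptprc at 0.396 and 0.447, Csf1r at 0.660 and 1.06, Tyrobp at 0.330 and 0.894 and Emr1 at 0.396 and 1.34 CPM. The summed level of the list was 18.2 and 8.66 and then 60.4 and 87.2 CPM, and most of the day 4 sum was Laptm5.

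**Figure D1:**
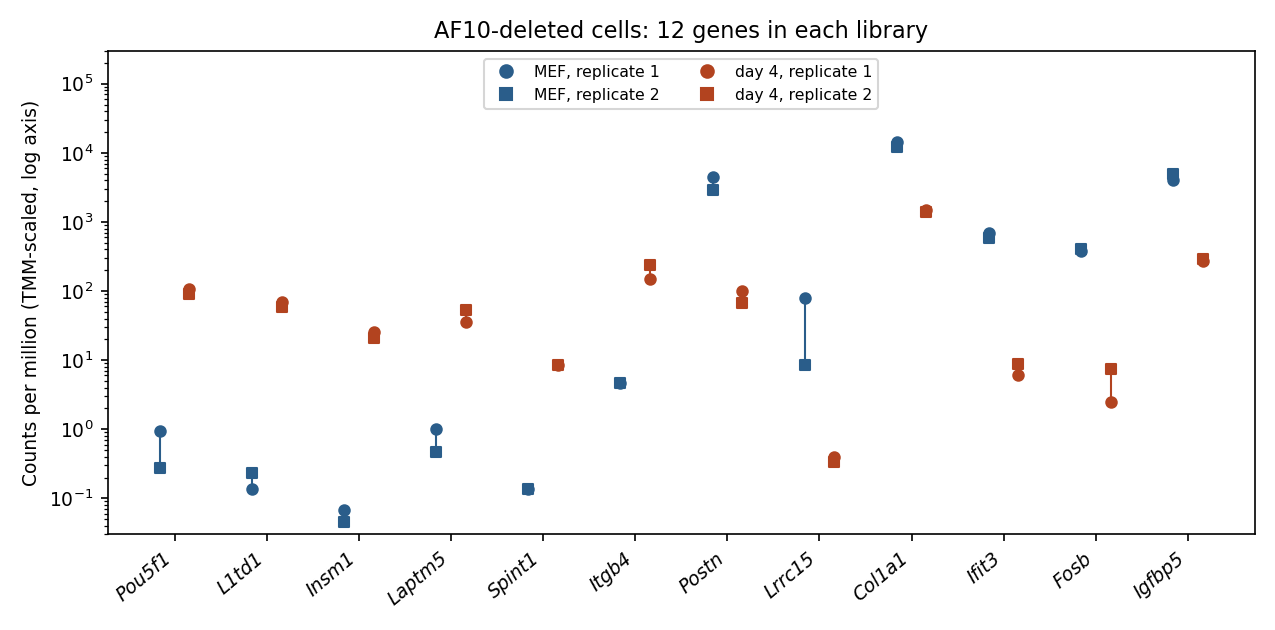
Level of 12 genes in each library, in CPM on a log axis, with MEF_creAF10 in blue and Day4_creAF10_DMSO in red, circles for replicate 1 and squares for replicate 2. Pou5f1 sits at 0.943 and 0.276 CPM in the fibroblasts and at 106 and 89.6 CPM on day 4, and Ifit3 at 691 and 584 and then at 6.14 and 8.82 CPM.

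The cassette factors differed. Myc, which drives growth genes, was at 22.8 and 16.2 and then 318 and 289 CPM, a rise of 3.97 ± 0.17. Sox2, the partner of Oct4, went from 9.10 and 5.94 to 83.3 and 96.1 CPM, a rise of 3.60 ± 0.22. Klf4, a zinc finger factor that fibroblasts also express, was at 213 and 155 and then 164 and 167 CPM, with overlapping stages and an adjusted p of 0.412; without MEF_creAF10 replicate 2 its change was -0.36 with an adjusted p of 0.0459. Whether these reads came from the cassette or from the resident genes was not tested.

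The largest rises were not those of pluripotency genes alone. Insm1, a zinc finger repressor of neuroendocrine cells, had 1 count in each fibroblast library and rose to 25.5 and 21.1 CPM. Acsbg1, an acyl-CoA synthetase, went from 0.606 and 0.507 to 104 and 123 CPM, a rise of 7.68 ± 0.25. Aldh3a1, an aldehyde dehydrogenase of the cornea, went from 2.69 and 1.98 to 329 and 352 CPM, a rise of 148-fold. Ceacam1, a cell adhesion molecule of epithelia, rose by 7.42 ± 0.51 and Upp1, a uridine phosphorylase, by 6.93 ± 0.94. Upp1 differed more between the day 4 libraries (125 and 56.5 CPM) than between the fibroblast libraries (0.741 and 0.737 CPM). With at most 3 counts in both fibroblast libraries and at least 10 CPM in both day 4 libraries, 5 genes came on, namely Insm1, Tdh, Cacna2d2, Nup210 and Sigirr. By the mirrored rule Lrrtm1 and Fat2 went off.

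Early genes of pluripotency rose and late ones were hardly measured. Of 14 genes listed as early, 9 passed the filter on low counts, 8 of them rose and 0 fell, with a median change of 3.79. Tdh, the threonine dehydrogenase of mouse embryonic stem cells, had 1 and 0 counts in the fibroblasts and 231 and 422 on day 4. Fgf4, a growth factor that Oct4 and Sox2 switch on, had no counts in the fibroblasts and stood at 8.65 and 13.1 CPM on day 4, at least 58.9-fold higher against a floor of 3 counts per library. Cdh1, which encodes E-cadherin, went from 0.674 and 1.84 to 43.6 and 31.9 CPM, a rise of 4.82 ± 0.39. Epcam, another epithelial adhesion protein, reached only 1.19 and 1.00 CPM. Trim71, a repressor of mRNAs in stem cells, reached 1.45 and 1.00 CPM. Sall4, Lin28a, Lin28b, Utf1 and Dppa5a did not pass the filter.

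Of 15 late pluripotency genes only 4 passed that filter, and Esrrb, Zfp42, Dppa3 and Prdm14 were among the 11 that did not. Nanog, the core factor of the network, was at 0.741 and 0.230 and then 1.98 and 0 CPM, with overlapping stages (adjusted p = 0.536, edgeR). Tcfcp2l1 rose by 1.18 (adjusted p = 0.0408), a call lost without Day4_creAF10_DMSO replicate 1 (0.73, adjusted p = 0.254) and without MEF_creAF10 replicate 1 (0.88, adjusted p = 0.188). Tbx3, a T-box factor shared with limb mesenchyme, fell by 1.06. Of the 7 genes of DNA methylation, Uhrf1, which guides the maintenance methyltransferase, rose by 1.33 from 34.2 and 31.6 to 84.8 and 80.8 CPM, and Tet1, which oxidises methylcytosine, fell by 1.20 from 25.1 and 18.4 to 10.0 and 8.88 CPM. Dnmt1 rose by 0.43 and Tet3 by 0.51.

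The fibroblast matrix fell almost as a whole. Of 18 collagen genes 17 fell and 1 rose, with a median of -2.04, and their summed level went from 63721 and 49113 to 12800 and 12267 CPM. Col1a1, the main chain of type I collagen, went from 14490 and 12000 to 1506 and 1393 CPM. Col8a2, of a network collagen, went from 99.7 and 87.5 to 1.78 and 2.68 CPM and fell by 5.37. Col15a1, a basement membrane collagen, was the exception and rose by 1.56, from 43.4 and 30.4 to 121 and 95.7 CPM. Among 18 genes that process or crosslink collagen, 15 fell and 1 rose (median -0.97). Lox, the oxidase that starts crosslinking, went from 3497 and 3493 to 532 and 436 CPM, whereas its relative Loxl3 rose by 0.94 from 135 and 139.8 to 245 and 280.1 CPM. Of 25 matricellular and elastic fibre genes 21 fell and 1 rose (median -1.69). Sparc fell by 2.08, Dcn (decorin) by 2.81 and Bgn (biglycan) by 1.69, and Fmod (fibromodulin) rose by 0.77. Lrrc15, a surface protein of matrix-producing fibroblasts, had the largest fitted fall among called genes with at least 20 CPM in the fibroblasts, and fell by 6.89 ± 1.70 (adjusted p = 0.00986, edgeR). Its fibroblast libraries stood far apart at 79.9 and 8.43 CPM, and without MEF_creAF10 replicate 1 its change was -4.51 (adjusted p = 0.0515); without either day 4 replicate the adjusted p was 0.0574 or 0.0622.

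Transcription factors and surface genes of mesenchyme fell in part. Of 21 mesenchymal regulators 14 fell and 0 rose (median -1.11), and 9 fell without Day4_creAF10_DMSO replicate 1. Zeb2, a repressor of E-cadherin, went from 148 and 127 to 38.8 and 34.5 CPM and fell by 1.91, and Snai1, Twist2 and Osr1 fell by 1.61, 1.78 and 2.04. Of 15 contractile genes 13 fell and 0 rose (median -1.47). Cnn1, the smooth muscle calponin, went from 20.1 and 16.2 to 0.594 and 1.23 CPM. Of 21 genes of the TGF-beta response 14 fell and 1 rose; the ligand gene Tgfb2 fell by 2.19 and the secreted target Tgfbi rose by 1.40, from 310.4 and 268 to 794 and 736 CPM. Among 14 cadherins and surface genes 7 fell and 4 rose. Cdh11, the cadherin of mesenchyme, fell by 2.20 and Cdh2 (N-cadherin) by 1.69, while Vim (vimentin) rose by 0.79. Thy1, a fibroblast surface marker, stood at 409 and 122 and then at 238 and 253 CPM, so that the stages overlapped.

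Of 23 epithelial genes 16 passed the filter, of which 10 rose and 0 fell (median 1.74). Spint1, an inhibitor of epithelial surface proteases, went from 0.135 and 0.138 to 8.58 and 8.60 CPM, a rise of 5.90. Cldn3, a claudin of tight junctions, had no counts in the fibroblasts and stood at 5.61 and 3.18 CPM on day 4, at least 23.8-fold higher against the floor of 3 counts per library. Dsp (desmoplakin) rose by 2.41, from 9.23 and 9.90 to 36.3 and 65.3 CPM. Esrp1, Grhl2, Cldn4, Cldn6 and Cldn7 did not pass the filter. Of 14 listed keratinocyte genes, which include genes of the basal epidermis, 11 passed the filter. Of these, 5 rose and 2 fell (median 0.69), against 27.5% of all genes in each direction. Itgb4, the hemidesmosome integrin, went from 4.72 and 4.61 to 149 and 238 CPM, a rise of 5.38, and Trp63, the p63 factor, from 4.31 and 5.57 to 27.2 and 29.0 CPM. Krt15 and Lamb3 fell, calls that were lost without Day4_creAF10_DMSO replicate 1 (changes of -3.16 and -2.18). Krt5, the keratin that defines basal epidermal cells, was below 0.25 CPM in all 4 libraries.

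**Figure D2:**
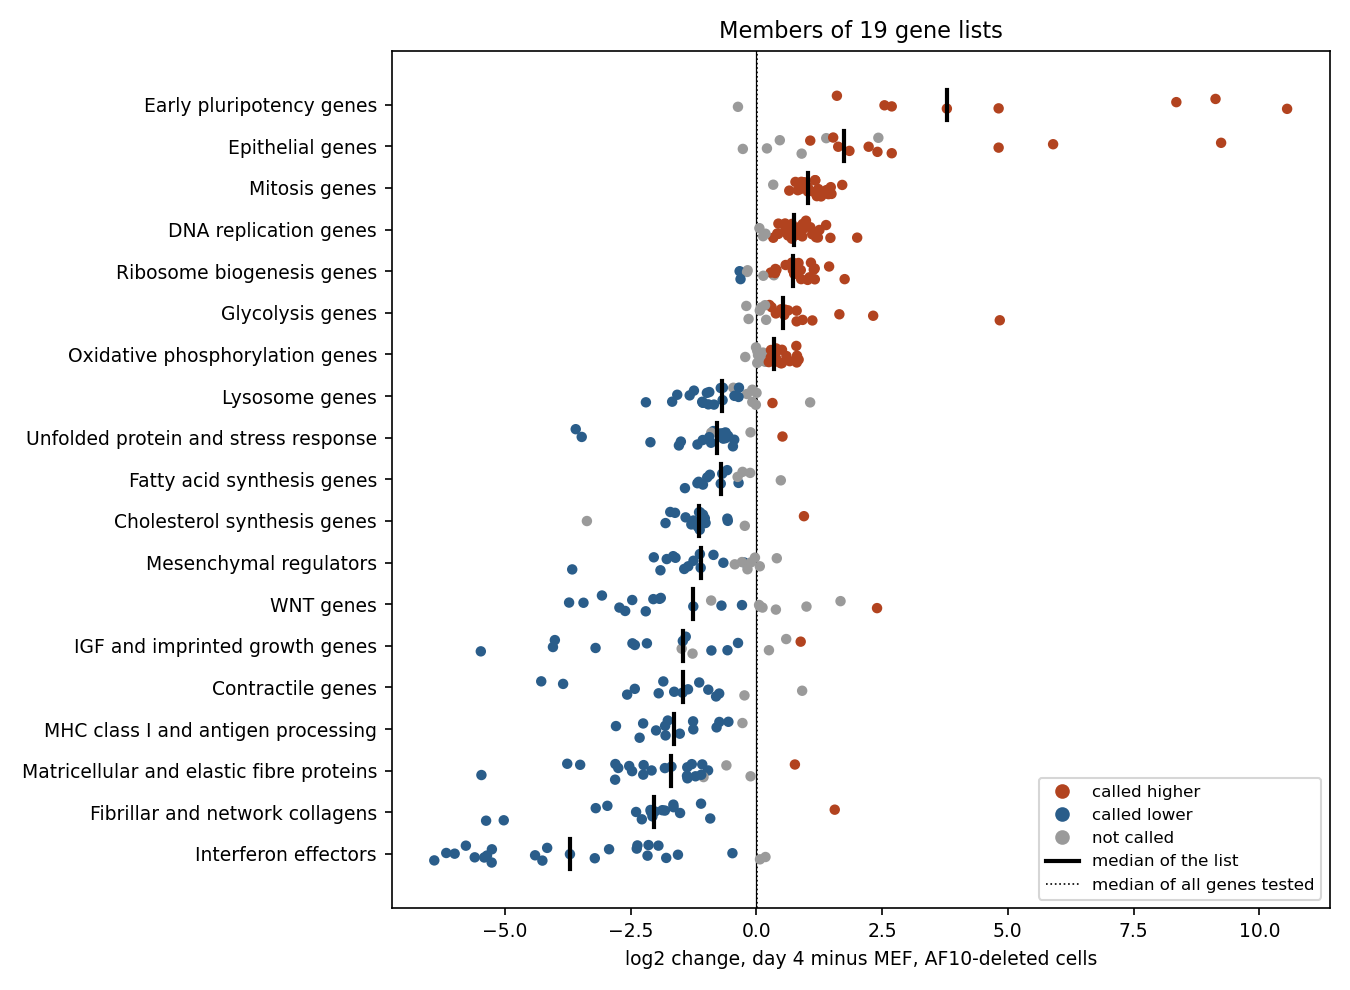
Log2 change from MEF_creAF10 to Day4_creAF10_DMSO of each tested member of 19 gene lists, with a bar at each list's median and a dotted line at 0.017, the median of all 13936 genes. The median lies at -3.71 for interferon effectors, -2.04 for collagens, 1.03 for mitosis genes and 3.79 for early pluripotency genes. Fgf4 and Cldn3 had no counts in the fibroblasts, and their points are fitted values.

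Genes of cell division rose by small amounts and nearly without exception. Of 30 DNA replication genes 27 rose and 0 fell (median 0.76), and of 26 mitosis genes 25 rose and 0 fell (median 1.03). Mcm10, which loads the replicative polymerases, went from 5.66 and 6.31 to 24.8 and 23.5 CPM, a rise of 2.00. Mki67, the proliferation marker Ki-67, went from 158 and 124 to 354 and 385 CPM, a rise of 1.39. Cdk1, the mitotic kinase, went from 52.9 and 44.9 to 91.8 and 92.0 CPM, a rise of 0.91. Of 19 cell cycle inhibitors and G1 genes 4 rose and 3 fell, or 1 fell without MEF_creAF10 replicate 1. Those that rose were the inhibitor genes Rb1, Cdkn2a and Cdkn2d and the cyclin gene Ccnd2. Those that fell were Ccne2, Ccnd3 and E2f1, which drive entry into S phase. The call of Ccnd3 was also lost without Day4_creAF10_DMSO replicate 1. Library-total and upper-quartile scaling and a fit of the 4 libraries alone lost it too (adjusted p = 0.0759 to 0.208, edgeR). That of Ccne2 was lost without Day4_creAF10_DMSO replicate 2 and in the fit of the 4 libraries alone (adjusted p = 0.0527, edgeR). Cdkn1a, the p53-induced inhibitor p21, was at 371 and 418 and then 385 and 409 CPM. Rb1, the retinoblastoma gene, went from 31.2 and 32.6 to 119 and 109.7 CPM and rose by 1.84. Of 25 p53 targets 7 rose and 4 fell, and 2 fell without Day4_creAF10_DMSO replicate 1 or MEF_creAF10 replicate 2.

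The promoters of the list members, 250 bases before to 50 after each start in RefSeq GRCm38.p6, were read for short motifs on both strands. Of the 13936 genes tested, 7821 had exactly 1 promoter under their symbol in that table and were used. TTTGAA, the core of the cell cycle homology region, was found in 14 of 20 mitosis promoters (70.0%) and in 11.5% of all promoters. TTTNNCGC, an E2F-like motif, was found in 10 of 20 replication promoters and in 8.95% of all. Both are shown because most of the listed mitosis and replication genes rose. Over all promoters, 315 with TTTGAA belonged to genes that rose, 192 to genes that fell and 392 to genes not called. Capitals mark the matches on either strand, and overlapping matches run together. Each window ends at or before the start of transcription. Mki67 lies at chr7:135716454-135716513, Cdk1 at chr10:69352913-69352972 and Top2a at chr11:99024190-99024249, all on the minus strand. Of the E2F-like windows, Mcm5 lies at chr8:75109332-75109391 on the plus strand, and Pola1 at chrX:93632260-93632319 and Rfc3 at chr5:151651209-151651268 on the minus strand.
Mki67: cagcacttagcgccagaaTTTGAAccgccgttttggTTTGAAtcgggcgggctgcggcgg
Cdk1: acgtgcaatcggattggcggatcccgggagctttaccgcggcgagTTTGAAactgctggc
Top2a: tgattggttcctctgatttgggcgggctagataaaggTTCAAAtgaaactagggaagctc
Mcm5: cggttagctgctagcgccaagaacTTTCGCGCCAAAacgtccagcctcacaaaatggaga
Pola1: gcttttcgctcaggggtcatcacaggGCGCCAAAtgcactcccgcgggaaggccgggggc
Rfc3: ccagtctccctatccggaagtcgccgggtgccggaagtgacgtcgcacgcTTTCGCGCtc
The TTTGAA share was 14.0% over all promoters of genes that rose and 9.08% over those that fell, and the TTTNNCGC share 11.2% and 6.95%. A match describes these letters and is not evidence of a bound factor.

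Protein synthesis genes rose as well. Of 28 ribosome biogenesis genes 22 rose and 2 fell (median 0.74); the 2 that fell, Bysl and Bop1, lost the call without any one of the 4 libraries and under library-total and upper-quartile scaling. Npm1, a nucleolar chaperone, went from 617 and 526 to 2077 and 1784 CPM, a rise of 1.76, and Dkc1 (dyskerin) rose by 1.45. Of 81 ribosomal protein genes tested, 76 rose and 0 fell, with a median of 0.993. In deposited TPM, which corrects for length, ribosomal protein genes made up 13.5% and 12.5% of the fibroblast libraries and 24.5% and 22.7% of the day 4 libraries. Eef1a1, a translation elongation factor, went from 11005 and 9517 to 18249 and 16693 TPM, while Col1a1 went from 6596 and 5716 to 624 and 589 TPM. The 100 genes with the highest TPM held 26.0% and 25.4% of the total in fibroblasts and 36.5% and 34.9% on day 4. Transcripts were shorter on average on day 4, at 1912.4 and 1950.1 bases against 2367.0 and 2374.6 bases when weighted by TPM. For a second average, the 128 genes among the 100 highest in mean TPM of either stage were left out. The averages were then 2506.0 and 2512.7 bases on day 4 and 2721.7 and 2736.5 bases in fibroblasts. The part of transcript length in the calls was not tested; the median length was 2464 bases for genes that rose, 3420.0 for genes that fell and 2737 for the rest.

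Metabolic genes went both ways. Of 22 genes of nucleotide and one-carbon metabolism 11 rose and 3 fell, or 5 fell without MEF_creAF10 replicate 2. Paics, a purine enzyme, went from 156 and 161 to 650.1 and 601 CPM, and Umps, a pyrimidine enzyme, rose by 2.03, while Mthfd2, a mitochondrial folate enzyme, went from 59.6 and 31.9 to 8.71 and 6.70 CPM. Of 20 glycolysis genes 14 rose and 0 fell (median 0.52), led by Aldoc, a brain-type aldolase, which went from 2.49 and 1.70 to 65.5 and 52.7 CPM. Of 30 respiratory chain genes 20 rose and 0 fell (median 0.35), but 13 rose without Day4_creAF10_DMSO replicate 1 and 13 without MEF_creAF10 replicate 1. Lipid synthesis fell, with 20 of 23 cholesterol genes lower and 1, Ebp, higher (median -1.14) and 10 of 14 fatty acid genes lower and 0 higher (median -0.69). The rise of Ebp was lost without either day 4 replicate and without MEF_creAF10 replicate 2. Hsd17b7, a late sterol enzyme, went from 88.5 and 65.6 to 22.1 and 24.9 CPM and fell by 1.71. Fasn, the fatty acid synthase, went from 408 and 381 to 188 and 189.9 CPM.

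The box CCAAT, bound by NF-Y, was found in 12 of 12 promoters of cholesterol genes, against 39.4% of all promoters. The windows nearest the start are shown for 3 of them, with the box in capitals on either strand. Hsd17b7 lies at chr1:169969206-169969265 on the minus strand, and Mvk at chr5:114444209-114444268 and Nsdhl at chrX:72918461-72918520 on the plus strand.
Hsd17b7: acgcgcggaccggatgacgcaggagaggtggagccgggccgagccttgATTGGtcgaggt
Mvk: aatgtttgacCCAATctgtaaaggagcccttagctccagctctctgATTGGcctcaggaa
Nsdhl: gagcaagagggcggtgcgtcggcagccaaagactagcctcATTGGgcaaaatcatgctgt
The same box was in 16 of 20 promoters (80.0%) of mitosis genes and in 16 of 20 of genes of the unfolded protein and integrated stress response.

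Chaperone and lysosome genes fell. Of 22 genes of the unfolded protein and integrated stress response 19 fell and 1 rose (median -0.78), and 0 rose without Day4_creAF10_DMSO replicate 2 or MEF_creAF10 replicate 2 and under DESeq2. Hspa5, the chaperone BiP, went from 1007 and 896 to 618 and 606 CPM. Chac1, a glutathione-degrading target of ATF4, went from 24.6 and 12.7 to 1.72 and 1.62 CPM. Of 26 lysosome genes 18 fell and 1 rose (median -0.69); the 1 that rose, Tcfeb, lost the call without any one of the 4 libraries, under DESeq2 (adjusted p = 0.109) and in a fit of the 4 libraries alone. Npc2, which carries cholesterol out of lysosomes, went from 574 and 633 to 249 and 262 CPM and fell by 1.24.

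Antiviral genes had the lowest median change of the 48 lists examined. Interferons activate transcription factors that bind an interferon-stimulated response element and switch on antiviral effectors. Of 25 interferon effectors 23 fell and 0 rose, with a median of -3.71, and their summed level went from 4604 and 4394 to 1109 and 1056 CPM. Ifit3, which binds foreign RNA with its relative Ifit1, went from 691 and 584 to 6.14 and 8.82 CPM and fell by 6.40 ± 0.30. Ifit1 went from 509.6 and 532 to 5.35 and 10.8 CPM, and Isg15, a ubiquitin-like protein, from 416 and 413 to 5.15 and 9.83 CPM. In each of them the stages were far apart and the day 4 libraries low. Usp18, the protease that removes Isg15, fell by 5.60. Bst2, which tethers budding virus, fell by 2.38 from 452 and 486 to 96.7 and 84.0 CPM. Ifitm3, an endosomal antiviral protein, was at 732 and 677 and then 776 and 706 CPM, which was most of the summed day 4 level. Oas3 was the other effector that did not pass the test. Oas2 fell by only 0.47, a call lost without either day 4 replicate, without MEF_creAF10 replicate 1, under DESeq2, library-total and upper-quartile scaling and in the fit of the 4 libraries alone (adjusted p = 0.0535 to 0.234).

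**Figure D3:**
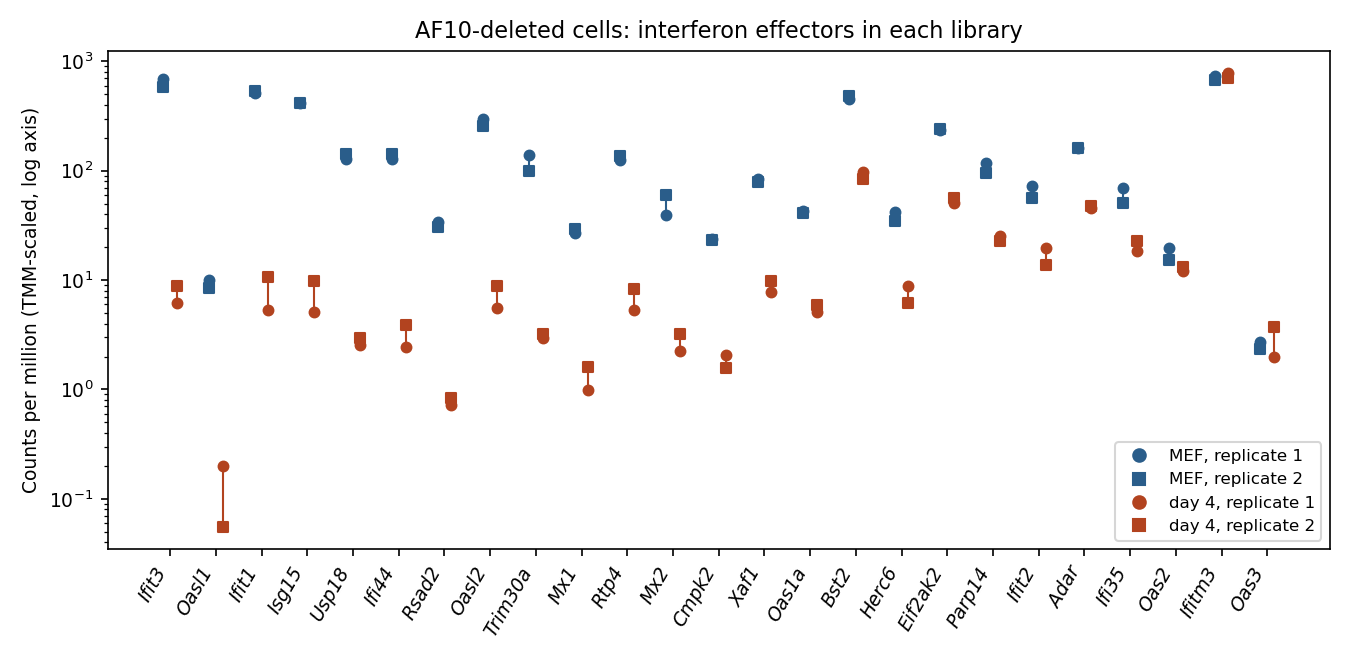
Level of 25 interferon effectors in each of the 4 libraries, in CPM on a log axis, ordered by their change; blue is MEF_creAF10, red Day4_creAF10_DMSO. Ifit3 drops from 691 and 584 to 6.14 and 8.82 CPM, while Ifitm3 lies at 732 and 677 and then 776 and 706 CPM.

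Genes of interferon signalling went both ways. Of 25 genes of interferon sensing and signalling 12 fell and 5 rose. Irf7, the factor that amplifies interferon production, went from 169 and 147 to 5.94 and 7.71 CPM, and Irf9 fell by 1.99. Tmem173 (STING, a DNA sensor), Mavs (the adaptor of RNA sensors) and Irf3 rose by 1.93, 1.18 and 0.62. Socs3, an inhibitor of cytokine signalling, went from 86.4 and 72.6 to 234 and 213 CPM, a rise of 1.49. The receptor gene Ifnar1 did not pass the test. Of 14 genes of MHC class I and peptide loading 13 fell and 0 rose (median -1.64), B2m, the shared light chain, from 1257 and 1119 to 335 and 345 CPM. Of 18 inflammatory chemokine and cytokine genes 6 rose and 6 fell, near the 27.5% of all genes that went each way. Their median change was -0.545 in replicate 1 and 0.868 in replicate 2. Mmp3, a matrix protease, went from 34.7 and 52.5 to 331 and 384 CPM, and Cxcl10, an interferon-induced chemokine, from 15.9 and 7.05 to 0.792 and 0.726 CPM.

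GAAANNGAA, the core of the interferon-stimulated response element, was found in 10 of 16 promoters of interferon effectors (62.5%), against 6.83% of all 7821 promoters. Windows of 5 effectors are shown since these genes fell together; capitals mark matches on either strand, and overlapping ones run together. Ifit1 (chr19:34640752-34640841, plus strand) and Ifit3 (chr19:34583360-34583449, plus strand) carry 3 matches each, all on the strand opposite to the printed one. Isg15 (chr4:156200842-156200931, minus strand) carries 3 overlapping matches, and Bst2 (chr8:71537551-71537640, minus strand) and Oas1a (chr5:120907526-120907615, minus strand) carry 2 overlapping ones.
Ifit1: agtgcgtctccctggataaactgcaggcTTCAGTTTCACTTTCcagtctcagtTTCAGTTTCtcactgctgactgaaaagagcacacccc
Ifit3: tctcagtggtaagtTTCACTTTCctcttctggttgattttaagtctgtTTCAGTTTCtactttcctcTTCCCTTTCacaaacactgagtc
Isg15: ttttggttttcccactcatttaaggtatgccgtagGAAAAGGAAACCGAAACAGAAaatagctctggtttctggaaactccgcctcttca
Bst2: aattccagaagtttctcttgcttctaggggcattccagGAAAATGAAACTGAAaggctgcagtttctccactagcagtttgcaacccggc
Oas1a: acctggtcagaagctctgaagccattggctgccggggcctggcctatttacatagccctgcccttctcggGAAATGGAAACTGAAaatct
The motif was in 7.54% of promoters of genes that rose, 6.91% of those that fell and 11.5% of those that fell by over 2 log2 units.

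Signalling genes were mixed. Among immediate early genes, the first to respond to growth signals, Fosb went from 383 and 410.2 to 2.44 and 7.49 CPM and fell by 6.29 ± 0.63, and Jun from 479 and 359 to 73.9 and 78.4 CPM. Fos was at 930.3 and 930.0 and then 126 and 324 CPM (adjusted p = 0.0635, edgeR). Of the 16 listed 5 fell, 1 rose and 10 were not called, and the fallen share was near the 27.5% of all genes. The median change of the list was -1.222 in replicate 1 and -0.066 in replicate 2. Of 17 FGF and ERK feedback genes 7 rose and 4 fell. Spry4 and Etv4, targets of ERK, rose by 1.83 and 2.21, while the ligand gene Fgf10 went from 42.9 and 68.5 to 5.81 and 8.15 CPM. Of 21 WNT genes 13 fell and 1 rose, with 8 lower without Day4_creAF10_DMSO replicate 2. Wnt11 went from 11.7 and 12.5 to 0.990 and 0.838 CPM, and Lef1, a nuclear partner of beta-catenin, rose by 2.40. Of 17 IGF and imprinted growth genes 12 fell and 1 rose (median -1.46). Igfbp5, an IGF-binding protein, went from 4002 and 4915 to 268 and 287 CPM. Dlk1, an imprinted surface protein, was at 1213 and 272 and then 22.6 and 10.9 CPM, with both stages wide apart between replicates. In the metallothionein and zinc list Mt2 rose by 1.88, while Mt1 was at 380.2 and 552 and then 317 and 209.7 CPM and did not pass the test.

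Genes of the super elongation complex and of Polycomb went both ways. Most Hox genes and cofactors, 29 of 39, were not called in the fit without a block. Of 17 genes of the super elongation complex and its partners, which share subunits with the DOT1L complex, 4 rose and 7 fell. Aff2 went from 16.3 and 26.6 to 1.58 and 2.62 CPM, while the scaffold Aff4 fell by 0.79 and the kinase gene Cdk9 rose by 0.45. Of 21 Polycomb genes 9 rose and 5 fell, or 3 fell without Day4_creAF10_DMSO replicate 2 or MEF_creAF10 replicate 2. Cbx7, a subunit that reads the Polycomb mark, went from 3.03 and 3.64 to 29.2 and 25.2 CPM. Of 39 Hox genes and cofactors 8 fell and 2 rose, and 4 rose and 21 fell with the replicate number as a block. Without Day4_creAF10_DMSO replicate 1 or 2, 5 or 1 of them fell; leaving out either of these libraries, or MEF_creAF10 replicate 1, left 1 that rose. The list medians of super elongation and Polycomb genes, -0.05 and -0.02, turned positive under upper-quartile and library-total scaling.

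Markers of other cell types were checked in the same libraries. Myod1, the muscle determinant, was at 0.202 and 0.0921 CPM in fibroblasts and 0 on day 4. Of 9 muscle genes that passed the filter 6 fell and 1 rose, or 3 fell without Day4_creAF10_DMSO replicate 2. Of 15 cartilage and bone genes 10 fell and 4 rose; 4 fell without Day4_creAF10_DMSO replicate 1, 6 without its replicate 2 and 4 without MEF_creAF10 replicate 2. Comp, of cartilage matrix, fell by 3.74, and Spp1 (osteopontin) went from 266 and 351 to 1820.0 and 2313 CPM. Of 10 listed endothelial genes 5 passed the filter, 1 rose and 2 fell. Tek rose by 2.62, from 15.7 and 17.0 to 89.3 and 112 CPM, and Kdr fell by 3.46. Pecam1, Tie1, Vwf, Esam and Emcn did not pass the filter. The part of such cells in the results was not tested.

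The same change was measured with AF10 intact. There 3588 genes rose (25.7%) and 3659 fell (26.3%); 3120 rose and 3253 fell in both arms, which is 83.144% of the calls in the deleted arm and 87.94% of those in the intact arm. The arms share no library. Same-numbered libraries of both arms were of the same sex by their Y-linked counts. Their deviations from the group means correlated (0.737 in MEFs and 0.534 on day 4). The labels do not say whether they came from the same cells. Across genes the changes correlated with r = 0.942 and a slope of 0.971, a description over genes that are not independent replicates. Of the genes called in both arms 1 went in opposite directions. It was Tgtp1, an interferon-induced GTPase gene named after its values were seen, at 6.06 and 4.19 and then 8.05 and 8.49 CPM with AF10 deleted, and at 10.4 and 12.2 and then 6.66 and 5.91 CPM with AF10 intact. In the intact arm 24 interferon effectors, 16 collagens and 21 cholesterol genes fell, and 25 mitosis genes rose.

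**Figure D4:**
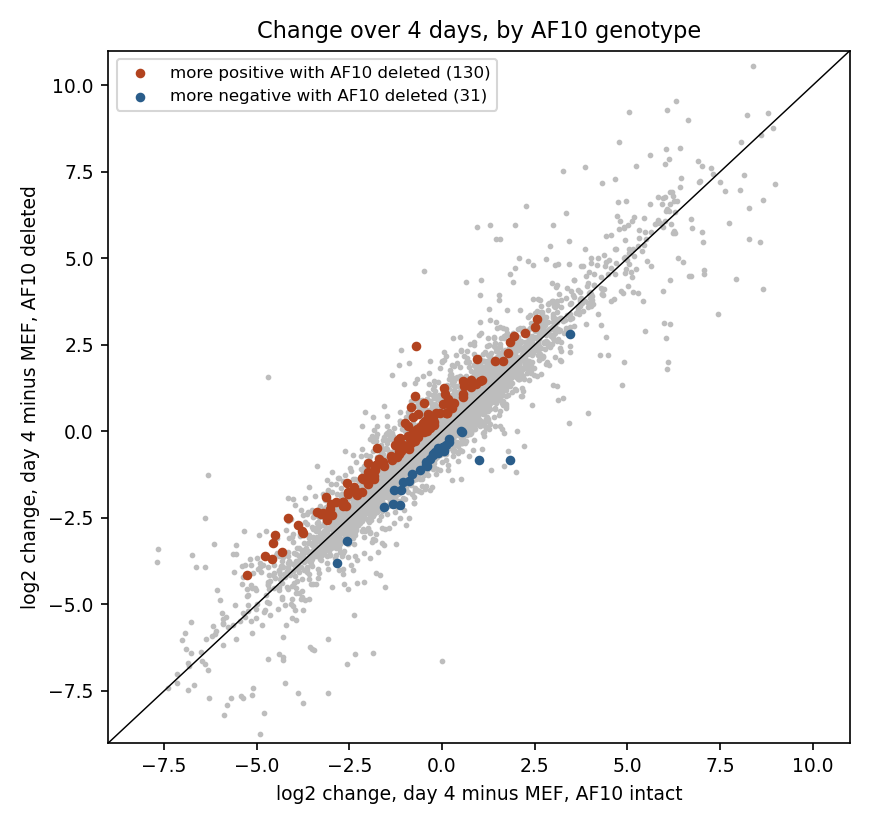
Change of each of 13936 genes from MEF to day 4 with AF10 deleted (vertical axis) against that with AF10 intact (horizontal axis), in log2 units. Most genes lie along the diagonal (r = 0.942); red and blue mark the 130 and 31 genes whose change was larger or smaller with AF10 deleted in the fit with a replicate block within each stage.

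The difference between the changes of the arms was tested directly. Without a replicate block 0 genes passed (0.0%), with 507 at an unadjusted p under 0.05, and DESeq2 called 2, Bst2 and Gbp2. A block for the replicate number shared by both stages also gave 0. With a block for the replicate number within each stage, 130 genes had a larger (more positive) change with AF10 deleted (0.933%). A smaller change was called for 31 (0.222%). In all of them both replicates had the same sign, but a call in this fit itself favours such genes, so this is no further support. Of the 130, 47 fell, 36 rose and 47 were not called in the deleted arm, so that a larger change could be a weaker fall. Interferon and MHC genes made up 14 of the 130 and 0 of the 31, out of 64 tested.

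Gbp2, an interferon-induced GTPase, went from 69.8 and 50.8 to 6.73 and 8.38 CPM with AF10 deleted and from 124.8 and 118 to 5.34 and 5.32 CPM with AF10 intact. With AF10 deleted it was lower in the fibroblasts and higher on day 4 than with AF10 intact, with no overlap between the arms at either stage. The difference of the changes was 1.54 ± 0.18 (adjusted p = 6.85e-05, edgeR with the block within stage). Oas2, which makes the second messenger that activates RNase L, went from 19.8 and 15.2 to 12.02 and 13.13 CPM against 30.6 and 27.9 to 9.82 and 7.43 CPM, a difference of 1.31 ± 0.18. Gbp3 went from 138 and 112 to 6.01 and 7.88 CPM against 230.4 and 217 to 6.26 and 5.36 CPM, so that its day 4 levels overlapped between the arms and its fibroblast levels did not.

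In the other direction stood Mt1, a metal-binding metallothionein. It went from 380.2 and 552 to 317 and 209.7 CPM with AF10 deleted and from 61.1 and 121 to 232 and 135 CPM with AF10 intact. The arms differed in the fibroblasts and overlapped on day 4, and the difference of the changes was -1.86 ± 0.12 (adjusted p = 1.33e-08, edgeR with the block within stage). Megf9, a membrane protein with EGF-like repeats, went from 28.0 and 35.0 to 5.61 and 8.71 CPM against 29.3 and 38.6 to 12.2 and 18.7 CPM, with overlapping fibroblasts and a lower day 4 level with AF10 deleted. None of the 16 named differences passed the edgeR test without the block, and a p that misses the threshold does not show that the arms acted alike.

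**Figure D5:**
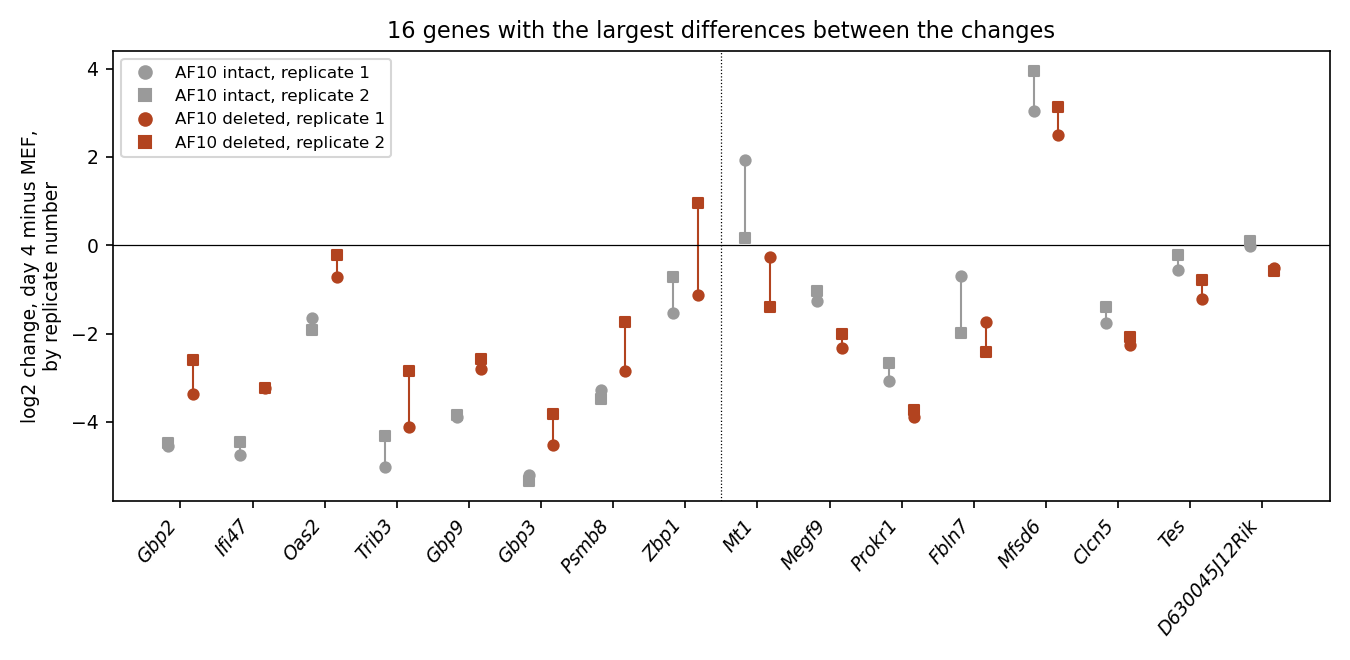
Change from MEF to day 4 of 16 genes, as the log2 ratio of CPM for each replicate number, with AF10 intact in grey and deleted in red. The change with AF10 deleted minus that with AF10 intact was 1.54 for Gbp2, 1.35 for Ifi47, -1.86 for Mt1 and -1.0 for Megf9 in the fit with a block within stage.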

How the data were processed

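RNA was measured in 12 libraries of polyadenylated RNA made with the TruSeq kit, per the labels' protocols. RSEM and Bowtie were run against mouse build mm9, per the submitters' processing notes; versions and options are not given in the sources used here. The deposited files hold expected counts for 20325 genes, per the file headers, together with the deposited TPM and FPKM values; FPKM was not used. RSEM divides reads that match several genes, so near-identical copies are uncertain. Gene names that read as dates occur in 10 of the files, 25 in each, and 0 in the Day4_creAF10_DMSO files, so rows were joined by transcript identifier.

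Expected counts were rounded to whole numbers. With edgeR 4.0.16 in R 4.3.3, filterByExpr kept 13936 genes; 1 fit with a term for each of 6 groups used TMM factors and the robust quasi-likelihood test, called at a Benjamini-Hochberg adjusted p under 0.05. CPM uses TMM-scaled totals. DESeq2 1.42.0, other scalings, no filter, only the libraries compared, the replicate block and leaving out each library were alternatives. The biological coefficient of variation was 0.148, and 0.0549 with a block within stage. Deviations from the group means correlated between same-numbered libraries in every pair of groups (0.286 to 0.737, and 0.307 for this pair). The Y-linked counts also split by number, so the numbers were taken to pair the libraries. The main fit leaves this pairing out, and genes said not to pass were judged without it. With the replicate number as a block, 4318 genes rose and 4319 fell, and 7653 of the 7665 main calls were kept. The scripts were tested on simulated counts.

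The comparison, the gene lists and the tests were chosen with earlier results of these data known, so counts over a list are descriptions. Named genes are the 8 largest called rises and falls with separate groups and at least 20 CPM, the markers, and up to 3 called members per list and direction; some of these are not described. Other list members that are named were chosen after their values were seen. Promoters are RefSeq GRCm38.p6, matched by symbol.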

Additional observations from a re-analysis of the deposited data

Results flagged for a closer look

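The change over 4 days differed between AF10-deleted and AF10-intact cells for 16 genes named from the edgeR quasi-likelihood fit with a replicate block within stage; the same differences did not pass in the fit without a block. With AF10 deleted the change was larger by 1.54 log2 units for Gbp2, 1.35 for Ifi47, 1.31 for Oas2, 1.18 for Gbp9 and 1.12 for Gbp3, all interferon-induced. It was also larger by 1.1 for Psmb8, an immunoproteasome subunit, 1.02 for Zbp1, a sensor of Z-form nucleic acid, and 1.19 for Trib3, a stress-induced pseudokinase. Of these 8 genes all but Zbp1 fell in both arms; for Oas2 the call with AF10 deleted was lost under several settings (adjusted p = 0.0535 to 0.234).

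The change was lower with AF10 deleted for Mt1 (-1.86), Megf9 (-1.0), Prokr1 (-0.954), Fbln7 (-0.75), Mfsd6 (-0.664), Clcn5 (-0.611), Tes (-0.606) and D630045J12Rik (-0.595). Whether the Cre virus had a part in these differences was not tested.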

How the results depend on the processing

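No called gene changed sign under any setting tried. Over those settings 2936 to 4955 genes rose and 2919 to 4319 fell. Leaving out a library gave 2936 to 3326 rises and 2919 to 3436 falls, all within 1.5 times the main counts. The replicate block that the pairing calls for gave 4318 and 4319, library totals 4955 and 2987, and upper-quartile factors 4493 and 3313 (57.6% rises, median 0.105). Of the named genes' values 2449 kept direction and side of the threshold, 109 lost the call and 5 gained it; of the list counts 953 stayed within 1.5 times, 79 were lower and 24 higher.

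For the difference between the arms, DESeq2 called 2 higher, and the replicate block within stage called 130 higher and 31 lower; the edgeR fit without a block, the other scalings, no filter, the block shared by the stages and each left-out library gave 0. The cause was not tested. With 2 libraries a group, leaving out a library assumes that the lone one varies like the other groups. The medians of the cell cycle inhibitor, chemokine, super elongation and Polycomb lists turned positive under upper-quartile and library-total scaling. Values near 0 CPM rest on single counts.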

Other observations

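Promoters of genes with large changes held fewer CpG than the rest, in both directions. The median number of CpG in the 300 bases of RefSeq GRCm38.p6 was 21.0 over 7821 promoters, 9.5 for the 284 genes that rose and 12 for the 417 that fell by over 2 log2 units, against 21.0 for all that rose and 22 for all that fell. The motif TATAAA was in 13.7% and 15.8% of the promoters past 2 log2 units and in 7.34% of all. The first windows upstream of the start are shown for L1td1 (chr4:98726604-98726753, plus strand) and Lrrc15 (chr16:30283255-30283404, minus strand), the gene of a large rise and of a large fall, with each CG in capitals; their 300 bases hold 14 and 16.
L1td1: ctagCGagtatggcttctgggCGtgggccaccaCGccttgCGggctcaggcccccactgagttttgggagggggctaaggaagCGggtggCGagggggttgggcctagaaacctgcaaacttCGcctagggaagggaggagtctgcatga
Lrrc15: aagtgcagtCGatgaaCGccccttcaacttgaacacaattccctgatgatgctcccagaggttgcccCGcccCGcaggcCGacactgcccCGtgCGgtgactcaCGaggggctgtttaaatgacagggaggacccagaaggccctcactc
The E-box CACGTG was in 7 of 17 lysosome promoters (41.2%) and in 10.2% of all.

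Lcn2, an iron-binding acute phase protein, went from 0.135 and 0.138 to 9.51 and 9.78 CPM, a rise of 6.07, while C4b, a complement component, fell by 1.03. Of 12 complement and acute phase genes 3 rose and 3 fell (median 1.11); 6 rose with the replicate block and 5 without MEF_creAF10 replicate 2. Mgp, the inhibitor of calcification in matrix, went against the collagens, from 3882 and 4601 to 10472 and 13136 TPM.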
